A study of Mus musculus with 6 samples.

Results

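Genes of cholesterol and fatty acid synthesis were followed in mouse skin tumors and healthy skin on 1-colour microarrays. The set holds 32 genes, 17 of sterol synthesis, 4 of sterol regulation and transport, and 11 of fatty acid synthesis, elongation and desaturation. A probe belonged to a gene where the array's own gene name was the listed symbol, or Sc4mol, the older symbol of Msmo1. All 32 genes were on the array, through 47 probes, among 36095 gene names. All 32 also passed the detection filter, which asks for a probe flagged as well above background on 3 or more arrays, and were among the 24757 features tested. Of these 32, 30 were well above background on all 6 arrays, while Srebf1 was on 2 of 3 tumor arrays and Fads2 on 2 of 3 healthy skin arrays.

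The mice were FVB/N females, and total RNA came from bulk biopsies, 3 of healthy skin and 3 of tumors labelled as cutaneous squamous cell carcinoma (cSCC). Tumors were raised with DMBA, a mutagenic polycyclic hydrocarbon, followed by the phorbol ester TPA (PMA), a tumor promoter, for 6 weeks, then another dose of DMBA and the promoter again for 14 weeks. Tumors were collected over the whole course, so single tumors may have had less than all of it. Healthy skin received acetone, the solvent, so the tumor and the painting cannot be told apart in any difference below. Neither the age of the mice nor whether each biopsy came from its own mouse is given in the sources used here, so the spread behind each p-value may be partly technical.

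Cholesterol is built from acetyl-CoA through mevalonate, the isoprenyl diphosphates, squalene and lanosterol. Fatty acids are built from the same precursor by acetyl-CoA carboxylase and fatty acid synthase, and are then lengthened by elongases and given double bonds by desaturases. The membrane-bound transcription factors SREBP2 and SREBP1, products of Srebf2 and Srebf1, drive the sterol and the fatty acid branch respectively, with overlap, and are released when membrane sterol is low. Skin makes much of its own sterol and fatty acid: keratinocytes for the barrier, sebaceous glands for sebum and adipocytes for storage.

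Values are log2 signals relative to the 75th percentile of each array, so 0 is that percentile and a difference of 1 is a doubling. The healthy skin 3 array was the dimmest (75th percentile of 242 intensity units against 525 to 897 on the others), and the tumor 1 array had a median background of 85 against 23 to 26. The keratinocyte markers Krt5, Krt14 and Trp63 were well above background on all 6 arrays, so both groups held keratinocytes. Over all features, 25.9% passed the test, limma with a threshold of 0.05 on the Benjamini-Hochberg adjusted p. Higher in tumors were 2553 (10.3%) and lower were 3867 (15.6%). The total of 6420 was 4056 without healthy skin 2 and 3840 without tumor 2. The share of higher genes among the called ones was 39.8%, but 62.9% when arrays were scaled to their median and 69.8% when scaled to spike-in RNA. Taking every feature, the median log2 difference was -0.16, and 0.21 and 0.71 under these 2 scalings, so each change below is relative to the upper signals of the array.

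Of the 32 genes, 6 were higher in tumors and 5 were lower, against the 10.3% and 15.6% of all features. The late sterol enzymes Hsd17b7, Nsdhl and Sc5d, the regulator Srebf2 and the desaturases Scd2 and Fads3 were higher. The carboxylase Acacb, the elongases Elovl6 and Elovl5, the regulator Srebf1 and, near the threshold, the synthase Fasn were lower. The other 21 genes did not pass the test. In biopsies, fewer cells of a type and less RNA per cell cannot be told apart. No called gene changed sign under quantile, median or spike-in scaling, although 4 of these calls were lost with spike-in scaling, as given with each gene.

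**Figure D1:**
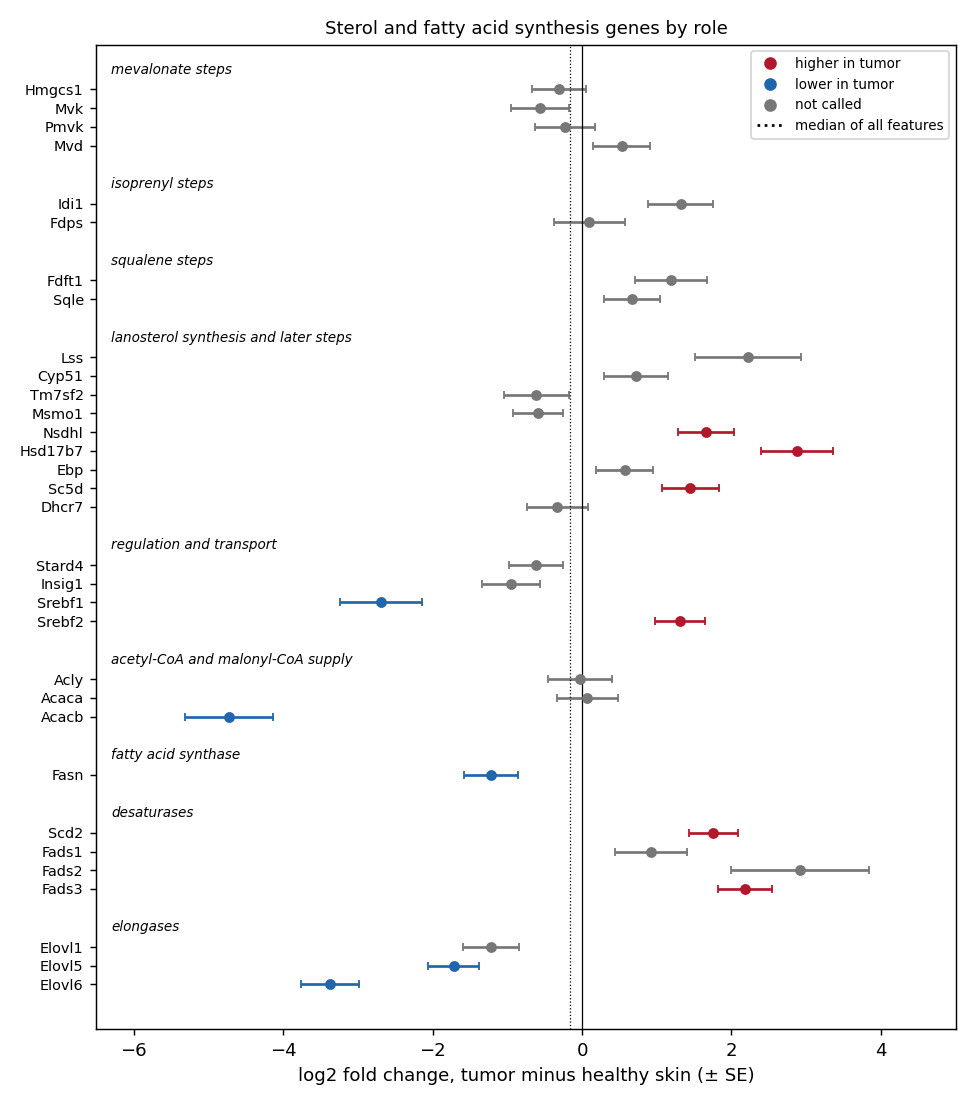
Log2 fold change (tumor minus healthy skin, ± SE, 3 arrays in each group) of the 32 genes, grouped by role, with higher calls in red, lower calls in blue and genes not called in grey. The dotted line is the median of all features, -0.16. The 4 desaturases lie to the right of 0 and the 3 elongases to the left, also under quantile, median and spike-in scaling.

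The sterol branch is described from its entry to its end. Its 17 genes had a median log2 fold change of 0.57, which is 0.73 above the median of all features. Of them, 3 were higher, 0 were lower and 14 did not pass. The groups did not overlap in 7 of the 17, all of them higher in tumors, while 20.7% of all features were higher and 29.0% lower without overlap. The count of 3 fell to 2 without healthy skin 1, healthy skin 3, tumor 1 or tumor 3, in each case through the loss of Sc5d. It was 6 with median scaling and 5 with normexp correction, a variance trend or array weights. The 3 calls were Hsd17b7, Nsdhl and Sc5d, of the lanosterol and later steps. Among the earlier steps Idi1 passed with median scaling (adjusted p = 0.0227), normexp correction (0.0289), a variance trend (0.0494) and array weights (0.048), and Fdft1 with median scaling (0.0441), and a difference between early and late steps was not tested.

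Among the mevalonate steps, the values of the groups overlapped in 4 of 4 genes. Hmgcs1, the HMG-CoA synthase that commits acetyl units to the pathway, had log2 signals of 5.0, 5.58 and 5.57 in healthy skin 1 to 3 and 5.67, 4.75 and 4.79 in tumor 1 to 3. Tumor 1 was the highest of the 6 arrays and the other tumors were the lowest, and the log2 difference was -0.31 ± 0.36 SE (limma adjusted p = 0.539). It turned to 0.05 under median and 0.56 under spike-in scaling. The kinases Mvk and Pmvk had log2 differences of -0.56 and -0.23, and the decarboxylase Mvd had 0.53, with adjusted p-values from 0.315 to 0.694.

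The isoprenyl and squalene steps had positive differences in 4 of 4 genes and 0 calls. Fdps, the farnesyl diphosphate synthase, was at 0.10, and -0.09 with quantile normalization. Sqle, the squalene epoxidase and a control point of the pathway, had log2 signals of 3.62, 4.34 and 4.14 in healthy skin and 5.32, 4.45 and 4.34 in tumors. The groups did not overlap, but only narrowly, since tumor 3 and healthy skin 2 were both at 4.34 to 2 decimals. The difference was 0.67 ± 0.37 SE (adjusted p = 0.211), and 0.36 without tumor 1. Idi1, the isopentenyl diphosphate isomerase, was 2.63 to 3.05 in healthy skin and 3.58 to 5.10 in tumors, a difference of 1.32 with adjusted p = 0.0619. Fdft1, the squalene synthase, had 1.19 with adjusted p = 0.105. Its other probe, above background on 3 arrays, had -0.95, so the direction of this gene is not settled.

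The last steps, from lanosterol on, held the largest sterol differences. Hsd17b7, the 3-ketosteroid reductase that acts in the removal of the C4 methyl groups, had log2 signals of 0.01, 0.14 and -1.56 in healthy skin and 2.26, 2.29 and 2.67 in tumors. All tumors were above all healthy samples by more than the spread within either group, and healthy skin 3 was the lowest. The gene rose 7.34-fold (log2 2.88 ± 0.48 SE, limma adjusted p = 0.00623), and by 2.33 without healthy skin 3. Its other probe gave 1.56 ± 0.33 SE. It was called in 19 of 19 alternatives (probe on chromosome 1, positions 171883182 to 171883241, mm9, minus strand, in the array's annotation).

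Nsdhl, the sterol dehydrogenase that acts beside Hsd17b7 in the same demethylation, had -0.03, 0.22 and -0.19 in healthy skin and 2.29, 1.09 and 1.60 in tumors. Healthy values lay close together and every tumor was higher, tumor 1 the most. Nsdhl rose 3.16-fold (log2 1.66 ± 0.37 SE, limma adjusted p = 0.0167; probe on chromosome X, positions 70202803 to 70202862, mm9). Its call was lost on slide row 2, which holds healthy skin 3 and the 3 tumors (adjusted p = 0.0806, range over the alternatives 0.00688 to 0.0806). Its other probe gave 1.11 with adjusted p = 0.0548. Msmo1, the C4-methylsterol oxidase that starts this demethylation, did not pass: its difference was -0.59 ± 0.33 SE (adjusted p = 0.216), and 0.29 with spike-in scaling.

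Sc5d, the sterol C5 desaturase near the end of the pathway, had 1.13, 2.18 and 1.85 in healthy skin and 3.62, 2.78 and 3.11 in tumors. The lowest tumor stood above the highest healthy sample by less than the range within either group. Sc5d rose 2.73-fold (log2 1.45 ± 0.38 SE, limma adjusted p = 0.0295; probe on chromosome 9, positions 42062857 to 42062916, mm9). The call was lost without healthy skin 1, healthy skin 3, tumor 1 or tumor 3 (adjusted p = 0.0853, 0.0554, 0.0831 and 0.0657). It was also lost on slide row 2 (adjusted p = 0.106) and without a detection filter (0.0702). Over the alternatives its adjusted p ran from 0.0123 to 0.106.

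Lss, the cyclase that forms lanosterol, had a large but uneven difference. It was at 0.18, 0.28 and -2.25 in healthy skin and 2.28, 1.04 and 1.54 in tumors, so that healthy skin 3, the dimmest array, set much of the mean. The log2 difference was 2.22 ± 0.71 SE (adjusted p = 0.0549), and 1.39 without healthy skin 3 (adjusted p = 0.0593). It passed in 8 of 19 alternatives, with adjusted p from 0.0221 to 0.149. Of the remaining late enzymes, Cyp51 (lanosterol demethylase) and Ebp (sterol isomerase) had 0.72 and 0.57, and Tm7sf2 (sterol C14 reductase) and Dhcr7 (the last reductase) had -0.61 and -0.33. These 4 did not pass, their groups overlapped, and with spike-in scaling Tm7sf2 and Dhcr7 were at 0.26 and 0.54. Dhcr7 was at 0.04 with median scaling.

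The regulators Srebf2 and Srebf1 went in opposite directions. Srebf2 had -0.03, 0.01 and -0.37 in healthy skin and 1.70, 0.82 and 1.0 in tumors. Healthy samples were close to each other and every tumor was higher. Srebf2 rose 2.47-fold (log2 1.31 ± 0.33 SE, limma adjusted p = 0.0259; probe on chromosome 15, positions 82034765 to 82034824, mm9), and its other probe gave 1.46. The size held in the alternatives (0.92 to 2.18), but the call was lost without healthy skin 1, 2 or 3, tumor 1 or tumor 3 (adjusted p = 0.0623, 0.0635, 0.0546, 0.0619 and 0.0509). It was also lost on slide row 2 (adjusted p = 0.0855), with spike-in scaling (adjusted p = 0.061) and without a detection filter (0.0661), with a range of 0.00909 to 0.0855 over the alternatives.

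Srebf1 had -1.90, -1.77 and -0.17 in healthy skin and -4.67, -3.43 and -3.82 in tumors. Every tumor was lower, and 1 of the 3 tumor arrays was not well above background. Srebf1 was lower by a fitted log2 difference of -2.69 ± 0.55 SE (limma adjusted p = 0.0125; probe on chromosome 11, positions 60012664 to 60012723, mm9). Its size moved with the background handling, to -1.52 after normexp and to -1.65 in the table the authors deposited. The difference was -2.14 without healthy skin 3, and -1.79 (adjusted p = 0.0198) without healthy skin 3 and tumor 1 together. The call was lost with spike-in scaling (-1.82, adjusted p = 0.0935, range over the alternatives 0.00446 to 0.0935).

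Within each array, Srebf2 minus Srebf1 moved by 4.0 log2 units between groups, with all tumors above all healthy samples. In an exact two-sided permutation test over the 6 samples p = 0.1, the smallest that 3 against 3 allow, and the adjusted p = 0.133 over the 4 such gene pairs, chosen after their values were seen. Insig1, which holds the SREBPs in the endoplasmic reticulum and is itself an SREBP target, had -1.52, -1.17 and -0.96 in healthy skin and -1.51, -2.81 and -2.18 in tumors. Tumor 1 lay at the lower edge of the healthy values, so the groups overlapped only narrowly, and the other tumors were lower. The difference of -0.95 ± 0.39 SE did not pass (adjusted p = 0.108). Insig1 passed in 1 of 19 alternatives, array weights (-1.16, adjusted p = 0.0224), and was at -0.08 with spike-in scaling. Stard4, a carrier of cholesterol between membranes, had 2 probes that disagreed. The probe with the higher signal gave -0.62 ± 0.36 SE (adjusted p = 0.228) and the other 2.61 ± 0.55 SE (adjusted p = 0.0147 in a fit of every probe), so no direction is given for this gene.

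**Figure D2:**
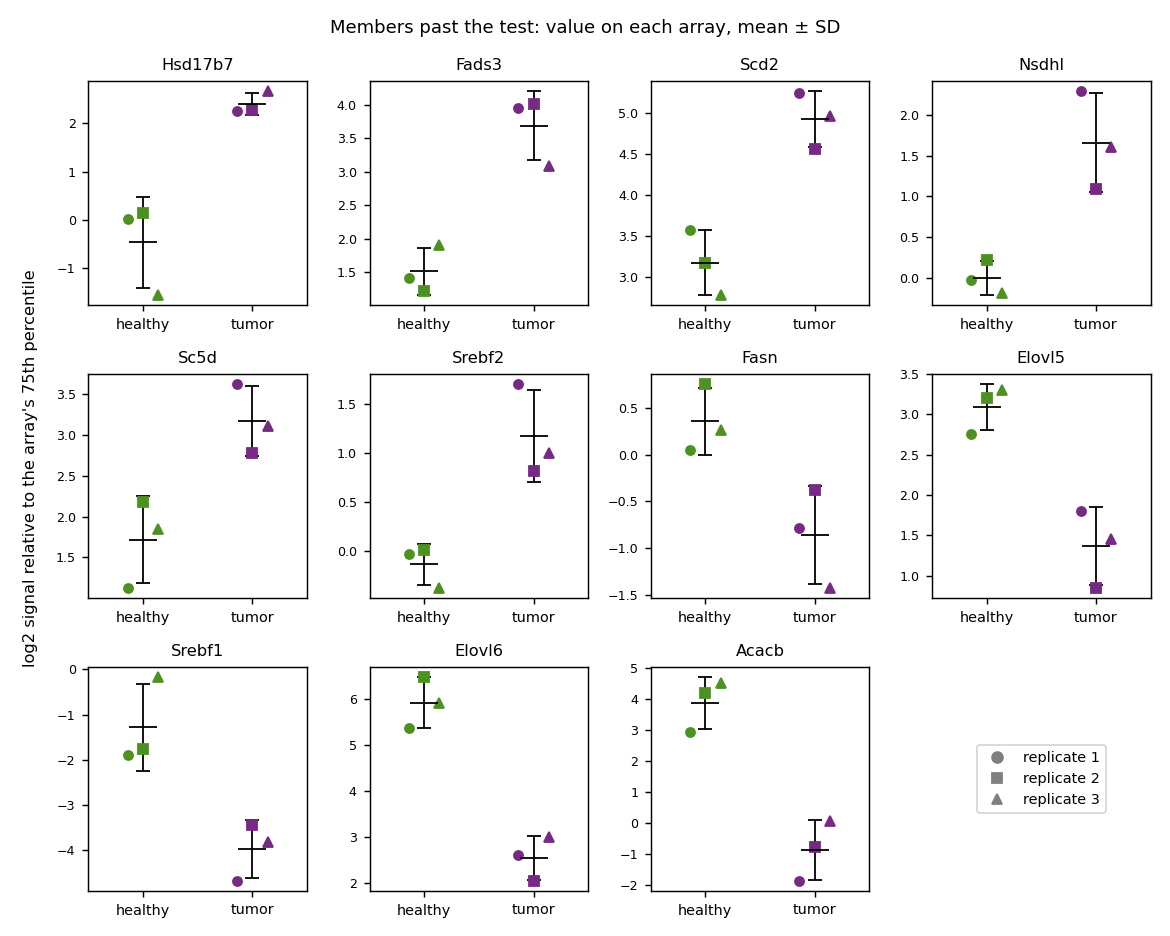
Log2 signal relative to the 75th percentile of each array for the 11 genes past the test, with 3 healthy skin and 3 tumor arrays (marker shape gives the replicate), bars at mean ± SD. In each panel all tumors lie on one side of all healthy samples, widest for Acacb and Elovl6 and narrowest for Fasn and Sc5d.

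Promoter sequences show what the sterol genes share by sequence. Windows from 250 bases before to 50 after the transcript start were taken from RefSeq (GRCm38.p6) and were matched for 26 of the 32 genes; Fdps, Fdft1, Sqle, Stard4, Scd2 and Fads1 had no window. The motifs were searched on both strands: TCACNCCAC, a sterol regulatory element bound by SREBPs, CCAAT, the box bound by NF-Y, and GGGCGG, the box bound by Sp1. Both NF-Y and Sp1 are known partners of SREBPs. The genes called higher in sterol synthesis and regulation follow here after Hmgcs1, the gene whose window holds the SREBP motif, with every match in capitals. For Pmvk, Dhcr7, Srebf1 and Elovl1, which have several windows, a match in any of them was counted.
Hmgcs1: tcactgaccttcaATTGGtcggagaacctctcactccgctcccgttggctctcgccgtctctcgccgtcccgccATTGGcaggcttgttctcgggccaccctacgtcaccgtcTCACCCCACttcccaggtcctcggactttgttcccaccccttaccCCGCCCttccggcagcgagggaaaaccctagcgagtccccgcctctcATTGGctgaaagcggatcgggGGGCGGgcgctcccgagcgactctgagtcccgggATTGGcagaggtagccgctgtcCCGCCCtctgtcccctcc
Nsdhl: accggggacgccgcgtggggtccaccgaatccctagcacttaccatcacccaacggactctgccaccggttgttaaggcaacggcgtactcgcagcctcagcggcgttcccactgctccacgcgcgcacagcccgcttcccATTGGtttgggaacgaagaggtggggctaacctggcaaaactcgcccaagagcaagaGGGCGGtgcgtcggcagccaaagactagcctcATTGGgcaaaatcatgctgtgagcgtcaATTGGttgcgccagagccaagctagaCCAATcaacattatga
Hsd17b7: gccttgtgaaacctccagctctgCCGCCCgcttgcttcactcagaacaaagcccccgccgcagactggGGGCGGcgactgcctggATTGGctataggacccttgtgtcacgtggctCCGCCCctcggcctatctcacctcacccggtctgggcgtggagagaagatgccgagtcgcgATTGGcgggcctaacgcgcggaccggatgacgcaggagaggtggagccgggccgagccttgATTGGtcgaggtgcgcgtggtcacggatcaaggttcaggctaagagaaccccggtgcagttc
Sc5d: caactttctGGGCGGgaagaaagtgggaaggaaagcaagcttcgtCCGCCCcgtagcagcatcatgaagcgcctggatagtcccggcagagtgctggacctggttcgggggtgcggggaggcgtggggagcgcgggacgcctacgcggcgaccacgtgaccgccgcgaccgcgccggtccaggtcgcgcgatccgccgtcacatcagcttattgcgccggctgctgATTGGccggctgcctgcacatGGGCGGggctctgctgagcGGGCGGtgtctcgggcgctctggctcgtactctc
Srebf2: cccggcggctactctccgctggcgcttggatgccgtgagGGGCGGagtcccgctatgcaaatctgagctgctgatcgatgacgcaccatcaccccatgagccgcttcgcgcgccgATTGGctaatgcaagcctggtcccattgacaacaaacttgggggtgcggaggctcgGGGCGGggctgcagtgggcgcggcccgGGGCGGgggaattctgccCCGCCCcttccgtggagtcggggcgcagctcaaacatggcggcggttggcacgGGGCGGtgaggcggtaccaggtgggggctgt

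These windows lie at chr13:119690101-119690400, plus strand, chrX:72918271-72918570, plus strand, chr1:169969156-169969455, minus strand, chr9:42264251-42264550, minus strand, and chr15:82147019-82147318, plus strand, and are written 5′ to 3′ on the strand of the gene. The Hmgcs1 window held TCACCCCAC, with its first base at -137 from the start. It was the single window among the 26 genes with an exact match to the SREBP motif. Of 27025 genes with a window, 1.44% had such a match. Variants of these letters were not searched, so a window without a match may still hold an SREBP site. The CCAAT box was in 14 of 14 sterol genes with a window, in 3 of 3 regulators and in 6 of 9 fatty acid genes, against 42.2% of the 12850 tested genes with a window. The GC box was in 13 of 14 sterol genes and 4 of 9 fatty acid genes, against 60.6% of those tested genes. By result, the GC box was in 5 of 5 genes called higher, in 1 of 5 called lower (Srebf1) and in 14 of 16 not called, and the CCAAT box in 5 of 5, 4 of 5 and 14 of 16. The windows of Fasn (chr11:120824498-120824797, minus strand) and Elovl6 (chr3:129532136-129532435, plus strand), both lower in tumors, are shown for contrast. In the Fasn window a CCAAT and its reverse overlap, and the Elovl6 window holds 0 of the 3 motifs.
Fasn: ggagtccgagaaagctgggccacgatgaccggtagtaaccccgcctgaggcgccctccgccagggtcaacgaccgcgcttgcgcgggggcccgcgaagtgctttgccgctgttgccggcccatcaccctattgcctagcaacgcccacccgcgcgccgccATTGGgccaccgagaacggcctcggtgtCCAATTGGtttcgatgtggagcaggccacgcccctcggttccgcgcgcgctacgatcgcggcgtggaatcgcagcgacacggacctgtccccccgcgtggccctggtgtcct
Elovl6: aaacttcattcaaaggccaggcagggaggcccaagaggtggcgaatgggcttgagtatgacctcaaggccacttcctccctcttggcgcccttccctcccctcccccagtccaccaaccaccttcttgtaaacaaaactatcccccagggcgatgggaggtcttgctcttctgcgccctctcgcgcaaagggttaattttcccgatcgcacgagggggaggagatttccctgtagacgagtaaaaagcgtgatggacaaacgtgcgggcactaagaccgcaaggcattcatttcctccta

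The fatty acid branch was split. Of its 11 genes, 2 were higher, 4 were lower and 5 did not pass, with a median log2 fold change of -0.03, which became 0.34 with median and 0.84 with spike-in scaling. Log2 differences ran from -4.73 to 2.92, a wider spread than the -0.61 to 2.88 of the sterol genes. The groups did not overlap in 4 genes that were higher and 5 that were lower. The shares among all features were 10.3% and 15.6% for higher and lower calls, and 20.7% and 29.0% for values without overlap. By role, the supply of acetyl-CoA and malonyl-CoA gave 1 lower of 3, the desaturases 2 higher of 4, and the elongases 2 lower of 3.

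Acly, the citrate lyase that supplies cytosolic acetyl-CoA to both branches, had 4.46, 5.15 and 5.70 in healthy skin and 4.96, 5.69 and 4.57 in tumors. Acaca, the cytosolic acetyl-CoA carboxylase, had 3.1, 3.49 and 4.43 in healthy skin and 3.79, 4.11 and 3.33 in tumors. In both genes the groups were interleaved, with differences of -0.03 ± 0.43 SE and 0.07 ± 0.41 SE (adjusted p = 0.963 and 0.912). The other probe of Acly, above background on 6 arrays, gave -0.9 ± 0.44 SE (adjusted p = 0.162 in the fit of every probe). With the mean of probes Acly was at -0.47. The 4 probes of Acaca ran from -0.17 to 0.29.

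Acacb, the carboxylase of the outer mitochondrial membrane whose product restrains fatty acid oxidation, was much lower in tumors. Its log2 signals were 2.91, 4.17 and 4.49 in healthy skin and -1.87, -0.80 and 0.05 in tumors, with a gap of more than 2 log2 units between the groups. The gene was 26.5-fold lower (log2 -4.73 ± 0.59 SE, limma adjusted p = 0.00222; probe on chromosome 5, positions 114700702 to 114700761, mm9). Its other probe gave -4.70 ± 0.47 SE, but was above background on only 4 arrays, with tumor signals of -5.55, -6.1 and -4.6. Acacb was called in 19 of 19 alternatives. Within each array Acaca minus Acacb moved by 4.80 log2 units (exact permutation p = 0.1, the smallest possible, adjusted p = 0.133).

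Fasn, the synthase that makes palmitate, had 0.05, 0.75 and 0.26 in healthy skin and -0.78, -0.38 and -1.42 in tumors. The gap between the groups was smaller than the range within either. Fasn was 2.32-fold lower (log2 -1.22 ± 0.36 SE, limma adjusted p = 0.0455; probe on chromosome 11, positions 120667666 to 120667725, mm9). This call is weak: it was lost when any of the 6 arrays was left out (adjusted p = 0.0695, 0.135 and 0.0761 without healthy skin 1, 2 and 3, and 0.0918, 0.0538 and 0.12 without tumor 1, 2 and 3). It was also lost with quantile (adjusted p = 0.0541), median (0.127) and spike-in scaling (0.779), without a detection filter (0.101) and on slide row 2 (0.176). The adjusted p ran from 0.0341 to 0.779 over the alternatives.

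The elongases had negative differences in 3 of 3 genes, also under quantile, median and spike-in scaling. Elovl6, which lengthens palmitate to stearate, had 5.36, 6.47 and 5.91 in healthy skin and 2.59, 2.04 and 2.98 in tumors. Every tumor was far below every healthy sample. It was 10.4-fold lower (log2 -3.37 ± 0.39 SE, limma adjusted p = 0.00169; probe on chromosome 3, positions 129341248 to 129341307, mm9) and was called in 19 of 19 alternatives.

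Elovl5, which lengthens polyunsaturated fatty acids, had 2.76, 3.20 and 3.30 in healthy skin and 1.80, 0.85 and 1.45 in tumors, without overlap. It was 3.29-fold lower (log2 -1.72 ± 0.34 SE, limma adjusted p = 0.0116; probe on chromosome 9, positions 77832205 to 77832264, mm9). That call was lost with spike-in scaling (-0.85, adjusted p = 0.415) and on slide row 2 (adjusted p = 0.0558), in a range from 0.00262 to 0.415. Elovl1, an elongase of saturated very long chains used in barrier lipids, was 6.72 to 7.32 in healthy skin and 5.31 to 6.52 in tumors. Its difference of -1.22 ± 0.38 SE just missed the threshold (adjusted p = 0.0529). It passed in 7 of 19 alternatives, among them without tumor 1 (adjusted p = 0.0329, range 0.0119 to 0.755). The other probe of Elovl1, above background on 6 arrays, gave -0.44 ± 0.58 SE (adjusted p = 0.596 in the fit of every probe). With the mean of probes Elovl1 was at -0.83 (adjusted p = 0.183).

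The desaturases of the set had positive differences in 4 of 4 genes, also under quantile, median and spike-in scaling. The desaturases Scd1 and Scd3, outside the set, were lower. Scd2, a stearoyl-CoA desaturase that makes monounsaturated fatty acids, had 3.57, 3.17 and 2.78 in healthy skin and 5.25, 4.57 and 4.97 in tumors. The groups were a full log2 unit apart. It rose 3.38-fold (log2 1.76 ± 0.33 SE, limma adjusted p = 0.00963; probe on chromosome 19, positions 44381024 to 44381083, mm9) and was called in 19 of 19 alternatives.

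Scd1, the related desaturase of sebaceous gland and fat, is not among the 32 genes and was 6.75-fold lower (log2 -2.75 ± 0.53 SE, limma adjusted p = 0.0103). Scd3, also outside the 32 genes, was 4.27-fold lower (log2 -2.10 ± 0.42 SE, limma adjusted p = 0.0124). Scd2 minus Scd1 moved by 4.51 log2 units within arrays (exact permutation p = 0.1, the smallest possible, adjusted p = 0.133). Scd3, Scd2, Scd4 and Scd1 follow one another among the protein-coding genes of chromosome 19 in RefSeq and are similar in sequence, so a probe of one may also bind a relative.

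Fads1, Fads2 and Fads3 are also direct neighbours on chromosome 19. Fads3, the member of this family whose role is less well known, had 1.41, 1.22 and 1.90 in healthy skin and 3.96, 4.01 and 3.09 in tumors. All tumors were above all healthy samples, and tumor 3 was the lowest tumor. It rose 4.52-fold (log2 2.18 ± 0.36 SE, limma adjusted p = 0.00617; probe on chromosome 19, positions 10132641 to 10132700, mm9). The call was lost on slide row 2 alone (adjusted p = 0.0717, range 0.000864 to 0.0717).

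Fads1, the delta-5 desaturase of polyunsaturated fatty acids, had 0.22, -0.01 and -1.58 in healthy skin and 0.49, 0.47 and 0.43 in tumors. Tumor values were nearly equal and healthy skin 3 was far below the rest. The difference was 0.92 ± 0.48 SE (adjusted p = 0.191), and 0.36 without healthy skin 3. Fads2, the delta-6 desaturase, was near background, from -6.5 to -2.86 in healthy skin and from -2.86 to -0.87 in tumors. Its difference of 2.92 ± 0.92 SE missed the threshold (adjusted p = 0.0537), with 1.97 without healthy skin 3 and 1.1 with normexp correction. Its other probe gave 0.92 (adjusted p = 0.574 in the fit of every probe). The gene passed without healthy skin 1 (adjusted p = 0.0216) and without tumor 3 (0.0488), and 8 of 18 alternatives called it (range 0.00647 to 0.21). Whether Fads3 differed more than Fads1 was not shown: the within-array difference moved by 1.26 (exact permutation p = 0.3, adjusted p = 0.3). With 3 against 3 arrays this p cannot fall below 0.1, so the test could not have passed a threshold of 0.05.

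**Figure D3:**
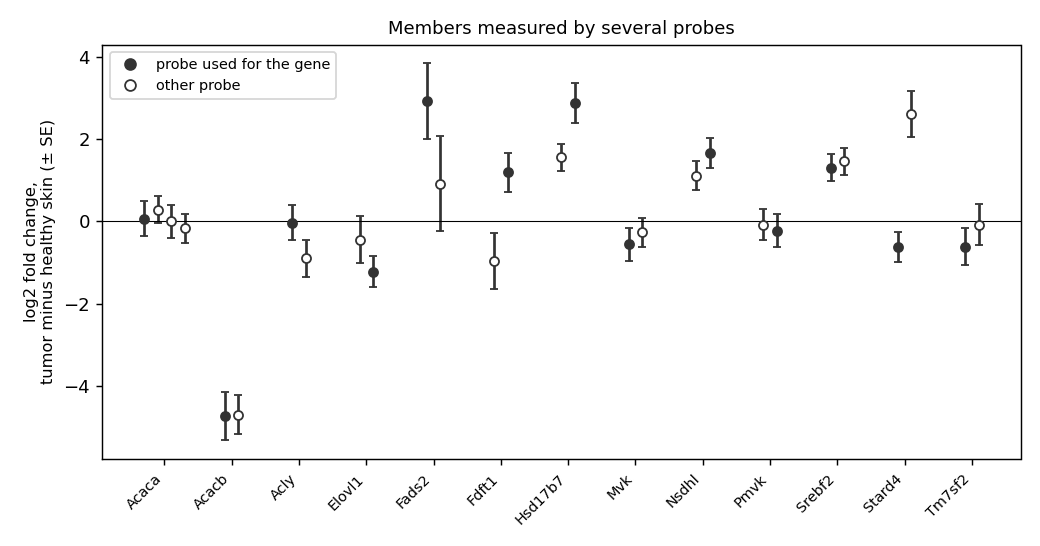
Log2 fold change (tumor minus healthy skin, ± SE) of each probe of the 13 genes with several probes, from a fit of every kept probe, with the probe used for the gene filled. The probes of Acacb, Hsd17b7 and Srebf2 lie on one side of 0 and close in direction, and those of Fdft1 and Stard4 lie on opposite sides.

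Set against each other, the 2 branches differed less clearly than their leading genes. With each gene centred on its mean over the 6 arrays, the median of the sterol genes was -0.33, -0.01 and -0.52 in healthy skin and 0.91, 0.05 and 0.12 in tumors. The groups did not overlap, but healthy skin 2 and tumor 2 were only narrowly apart and tumor 1 stood well above the rest. The fatty acid median was 0.22, 0.06 and 0.61 in healthy skin and 0.02, 0.41 and -0.52 in tumors, with the groups overlapping. The sterol minus fatty acid median was -0.55, -0.07 and -1.13 in healthy skin and 0.88, -0.36 and 0.64 in tumors, and tumor 2 fell within the healthy range.

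The difference between the medians of the log2 fold changes was 0.60. It was 0.09 without healthy skin 3, 0.34 without tumor 1 or tumor 3, and 1.14 without tumor 2. Without healthy skin 3 and tumor 1 together, an alternative added after seeing the data, it was -0.24. The sterol median itself was 0.36 without healthy skin 3 or tumor 1, and 0.08 without both. On slide row 2, which keeps both arrays, the difference between the 2 medians was 1.25. The size of the difference between the branches thus changed with the arrays used. Its sign changed without healthy skin 3 and tumor 1 together, and also with array weights (-0.20). Slide row 2 leaves out healthy skin 1 and 2, and no further pair of arrays was left out. The calls of Hsd17b7, Nsdhl, Scd2, Fads3, Acacb, Elovl5, Elovl6, Srebf1 and Srebf2 were kept without healthy skin 3 and tumor 1. Those of Sc5d and Fasn were lost (adjusted p = 0.0972 and 0.117).

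**Figure D4:**
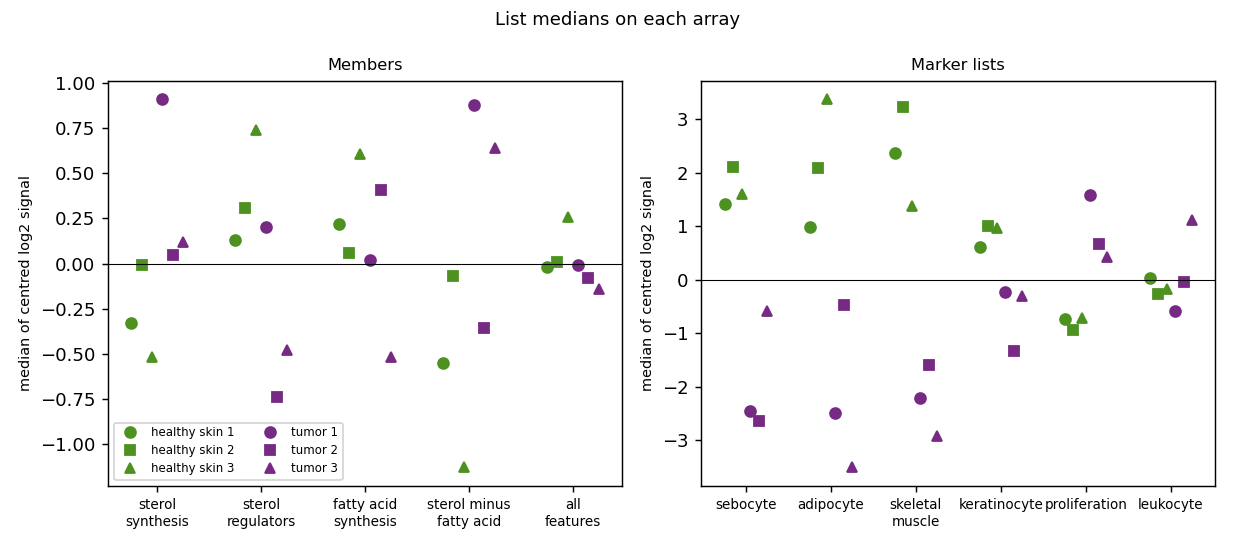
Median of centred log2 signals on each array (each gene minus its mean over the 6 arrays) for the gene groups on the left and the marker lists on the right, with healthy skin in green, tumors in purple and marker shape for the replicate. Sterol medians of tumors run from 0.05 to 0.91, just above healthy skin, fatty acid medians overlap, and sebocyte, adipocyte and skeletal muscle markers are separated by group.

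Other genes of the pathways were read from lists, whose counts stand against the 10.3% of all features called higher and the 15.6% called lower. Of 14 other genes of sterol synthesis, uptake and SREBP processing, 1 was higher, 0 were lower and 13 did not pass. The higher one was Npc2, which carries cholesterol out of lysosomes and rose 3.75-fold (log2 1.91 ± 0.44 SE, adjusted p = 0.0193). Of 10 genes of sterol efflux and the sterol-sensing LXR receptors, 1 was higher and 2 were lower. Ch25h, the cholesterol 25-hydroxylase whose product blocks SREBP processing, rose 5.94-fold (adjusted p = 0.00511). Apoe, the carrier of secreted cholesterol, was 4.56-fold lower (adjusted p = 0.0181) and Nr1h3, which encodes LXR alpha, 2.76-fold lower (adjusted p = 0.0465).

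Of 19 other fatty acid genes tested, 3 were higher and 7 were lower. The higher ones were Pgd and G6pdx, enzymes of the pentose phosphate pathway that supply NADPH, at 2.81-fold and 2.74-fold (adjusted p = 0.0108 and 0.0119), and Acss2, which makes acetyl-CoA from acetate, at 2.46-fold (adjusted p = 0.0413). The lower ones with the largest change were Elovl3, a sebaceous elongase, at 10.6-fold lower (adjusted p = 0.015), Scd1, given above, and Mlxipl, which encodes the glucose-sensing factor ChREBP, at 4.42-fold lower (adjusted p = 0.0239).

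Markers of other cells moved with the group. Of 9 sebocyte markers tested, 8 were lower and Mc5r, at 0.05, did not pass. Awat2 was well above background on 3 of 3 healthy and 1 of 3 tumor arrays, so no fold is given for it. The summed level of the list, in units of the 75th percentile signal, was 60.7 to 127 in healthy skin and 12.4 to 25.5 in tumors. Of 9 adipocyte markers tested, 7 were lower and Lipe and Fabp4 did not pass, with a summed level of 131 to 536 against 67.8 to 220. The sums overlapped, with Fabp4 the largest part in tumors (log2 signals of 7.42, 7.57 and 5.99), whereas the centred median of the list was 0.98 to 3.37 in healthy skin and -3.51 to -0.48 in tumors. Skeletal muscle markers were lower in 10 of 10, from 1020 to 1600 in healthy skin and 30.9 to 82.1 in tumors. The sebocyte list shares Scd3 and Elovl3 with the other fatty acid genes. Some of these cell types are known to express Acacb, Elovl6, Srebf1 and Fasn, and the part of the markers in the results was not tested.

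Proliferation markers were higher in 5 of 8 and had a summed level of 17.6 to 18.1 in healthy skin and 35.1 to 79.3 in tumors. Keratinocyte markers were lower in 3 of 8, and the summed level of the list was 1760 to 2600 against 921 to 1260. The lower ones were the suprabasal markers Krt1, Krt10 and Lor, with Krt10 at 10.4-fold lower (adjusted p = 0.0185). The basal markers Krt5, Krt14 and Trp63 had log2 differences of -0.25, 0.97 and -0.27 and did not pass. Krt15, also basal, had -2.72 and did not pass (adjusted p = 0.113). Leukocyte markers were split, 3 higher and 3 lower of 8, with a summed level of 102 to 281 against 380 to 668. In tumors that sum lay mostly in S100a8 and S100a9, which neutrophils and stressed keratinocytes are known to express. Cd68 was also higher (log2 2.61 ± 0.79 SE, adjusted p = 0.0476), but was well above background on only 2 of 3 healthy arrays. Cd3e, Cd3g and Itgam were lower, and Ptprc (0.96) and Csf1r (-0.3) did not pass. The part of all these markers in the sterol values was not tested.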

How the data were processed

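Total RNA of 3 healthy skin and 3 tumor biopsies was labelled with Cy3 and hybridised to 1-colour Agilent arrays on 1 slide. The deposited spot intensity values, per the file headers, are background-subtracted output of Feature Extraction 10.7.3.1 (Agilent), and probe positions refer to mm9. The authors' deposited series table holds log2 values that rank as the median spot signal without background subtraction (Spearman 1 on each array), with column medians of 6.334 to 6.347; how it was centred is not stated in the labels. The submitters' processing notes name limma without a version.

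From each log2 processed signal the 75th percentile of its array was subtracted, taken over 59305 spots that were not controls. Outlier spots were dropped (180 of 55681 probes lost), spots of a probe were averaged, probes well above background on at least 3 arrays stayed in (34284), and each gene was read from its probe of highest mean. Features were named through RefSeq (GRCm38.p6; 15276 by accession, 1015 by symbol, 178 by synonym, 8288 by the array's name alone). The test was limma's moderated one (version 3.58.1, R 4.3.3, two-sided, Benjamini-Hochberg over all features), checked on simulated data. Precision is limited by having 3 arrays in each group.

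The members and lists were chosen with earlier results of these data known. Values per array are given for members past the test without overlap and for Srebf1, Srebf2, Insig1, Hmgcs1, Sqle, Acly, Acaca, Fasn and Scd2; from each pathway list up to 3 called genes per direction are named. Outside that rule, Krt1, Krt5, Krt14, Krt15, Trp63, Lor, Cd68, Ptprc and Csf1r were chosen after their values were seen. So were the per-array values of Lss and Fads1. Alternatives were other scalings, normexp with an offset of 50, the authors' values, detection filters, the mean of probes, array weights, a variance trend, a block for the replicate number, slide row 2 only, and leaving out arrays. Added after seeing the data were leaving out healthy skin 3 and tumor 1 together and a fit of every probe.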

Additional observations from a re-analysis of the deposited data

How the results depend on the processing

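The count of all called features was 2646 with spike-in scaling, 3920 with no detection filter and 9858 with array weights, and it ran from 3840 to 5458 when 1 array was left out. The count of sterol synthesis genes called was 6 with median scaling and 5 with normexp correction, a variance trend or array weights, with 2 to 3 when 1 array was left out. That of fatty acid genes was 5 to 8 over all alternatives. The sterol median was 1.44 with spike-in scaling, 0.08 without healthy skin 3 and tumor 1 together and 0.36 to 0.80 without 1 array. The fatty acid median was 0.84 with spike-in scaling, -0.62 among probes above background on all 6 arrays, -0.47 with the mean of probes, 0.41 with array weights, -0.69 on slide row 2 and -0.35 to 0.26 without 1 array. The sterol minus fatty acid median was -0.20 with array weights, 1.25 on slide row 2, -0.24 without healthy skin 3 and tumor 1 together and 0.09 to 1.14 without 1 array. The cause of these shifts was not tested.

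With the replicate number as a block, 5470 features, 3 sterol genes and 6 fatty acid genes were called, with Fasn lost (adjusted p = 0.0542), Sc5d lost (adjusted p = 0.0637) and Lss and Fads2 gained (adjusted p = 0.0419 and 0.00647). The numbers gave no clear sign of pairing. The deviations of same-numbered samples correlated at 0.103, 0.129 and -0.0833, and not every sample correlated best with its own number. With 3 samples in each group, these correlations cannot show whether samples were paired. Slide row 1 held no tumor, so blocking on the row leaves what row 2 alone gives, 1 healthy array (number 3) against the tumors, where the lone healthy array is assumed to vary like the tumors. Signals near background limit Fads2 and, in tumors, Srebf1. Acacb, Elovl6, Hsd17b7 and Scd2 were called in 19 of 19 alternatives.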
